A study of Mus musculus with 4 samples.

Results

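This is a description of 11 transcripts that were far brighter on a single array, Control replicate 2, than on any of the 3 other arrays of the series. They were taken from 18193 genes, each represented by its brightest probe set with a single gene symbol. They were chosen by these intensities: a gene was included when Control replicate 2 was at least 500 and at least 3 times the highest of the other 3 arrays. Heat shock, DnaJ, collagen, Usp, proteasome and eIF genes, and a set of named early response and cardiac genes, were left out by symbol. The limits were passed by 19 genes (0.104% of all genes) before those symbols were removed and by 11 (0.0605%) after. The members are Irx5, Myh7b, Cox10, Mta3, Gnb3, Cdc42bpg, Spsb4, Tctn1, Psca, Adam2 and E230013L22Rik. The same values that are described here chose the members, so their height in Control replicate 2 is given without a test.

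Total RNA of adult C57BL/6J hearts was hybridised to 4 Affymetrix mouse genome arrays, 1 array per sample and 2 per group. The group labelled Rhau KO carried CAAG-ERT2-Cre together with the floxed allele (Rhau F/F), and the group labelled Control was Rhau F/F alone. Both received 5 doses of tamoxifen at 2 months of age, and hearts were taken 2 months later. ERT2-Cre is a recombinase that enters the nucleus after tamoxifen, and this line is not restricted to cardiomyocytes. Rhau (Dhx36) encodes an RNA helicase that unwinds G-quadruplexes. Values are MAS 5.0 intensities, a linear scale of arbitrary units on which every array has a trimmed mean of 500, so the intensity limit equals the average level of an array. Whether the samples of a group came from separate animals is not given in the sources used here. In bulk RNA, fewer cells of a type and less RNA per cell cannot be told apart.

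The arrays differed in ways their labels do not name. Dhx36 read 568 and 537 under the Rhau KO label and 327 and 194 under the Control label, which goes against the deletion, so directions are given by label. Control replicate 1 was low in heart transcripts and held skeletal muscle transcripts. Tnni3, cardiac troponin I, read 10.3 there and 37838 to 39371 elsewhere, while Myh4, a fast skeletal myosin, read 43654 there and at most 80.4 elsewhere. In Control replicate 2 the heart content was close to that of the Rhau KO arrays. On that array 20 ventricular cardiomyocyte markers summed to 779865, where Rhau KO replicates 1 and 2 reached 782385 and 782252 and Control replicate 1 reached 367311. Values against Control replicate 1 thus compare heart with an array of different muscle content. For the members, their other probe sets, their relatives and their neighbours, Control replicate 2 is therefore also set against the mean of both Rhau KO arrays.

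The members have no single known function. Irx5 is a homeobox transcription factor known for shaping the gradient of repolarisation across the mouse ventricular wall. Myh7b is a sarcomeric myosin heavy chain whose gene also holds a microRNA of muscle. Cox10 makes an intermediate of heme A, the cofactor of cytochrome c oxidase. Mta3 is a subunit of NuRD, a chromatin remodeling complex that removes histone acetylation. Gnb3 is a G protein beta subunit known from cone photoreceptors, Cdc42bpg is a kinase bound by the small GTPase CDC42 (MRCK gamma), and Spsb4 is a substrate adaptor of ubiquitin ligases with a SOCS box. Tctn1 is a protein of the transition zone at the base of the primary cilium. Psca is a cell surface protein of the Ly6 family known from epithelia, and Adam2 is the beta subunit of fertilin on sperm. E230013L22Rik is annotated as a long noncoding RNA.

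Among the sequences of the members, 2 kinds bear on how these transcripts can be read. The first is the pair of mature microRNAs that lie inside Myh7b, shown because a transcript of this gene can also be the precursor of a microRNA. By RefSeq (GRCm38.p6), Myh7b spans bases 155611243 to 155634307 of chromosome 2, and the mature sequences lie at chr2:155622893-155622913 and chr2:155622929-155622951 on the plus strand. Capitals mark the seed, bases 2 to 8. The array did not measure the microRNAs in the values used here.
mmu-miR-499-5p: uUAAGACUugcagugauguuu
mmu-miR-499-3p: gAACAUCAcagcaagucugugcu

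The second kind is the promoter, taken as 250 bases before to 50 after the start of a gene, which the RefSeq table held for 5 of the 11 members: Myh7b, Tctn1, E230013L22Rik, Spsb4 and Cox10. They were searched on both strands. The core of the heat shock element, GAANNTTC, was in 0 of these 5 windows and in 7.86% of all 32851 windows of the same length. The cAMP response element TGACGTCA (1.79% of all windows), the AP-1 site TGACTCA (5.2%), the CArG box of serum response elements (1.63%) and the CCAAT box (37.4%) were each in 0 of the 5 as well. The GC box GGGCGG was in 3 of the 5, those of Tctn1, Spsb4 and Cox10, and in 35.7% of all windows. The windows were 44.3% GC for E230013L22Rik, 54.7% for Myh7b, 57.0% for Tctn1, 63.0% for Cox10 and 68.3% for Spsb4, around a median of 52.7% over all windows. With 5 windows these shares describe the sequences only. The lines below give 30 bases of each of the 3 promoters, read along the gene's strand, with the GC box or its reverse complement in capitals. The first lies at chr5:122264575-122264604, the second at chr9:97018576-97018605 and the third at chr11:64079624-64079653, all on the minus strand of GRCm38.p6. With 126 bases, 233 bases and 163 bases between them and the start site of the window, all 3 boxes lie upstream. For Tctn1 that start site lies inside the RefSeq span of the gene, which ends at base 122264489, so its box is nearer to the end of the span than 126 bases. Tctn1 and Cox10 held further boxes that are not shown.
Tctn1: ctgtctcataccCCGCCCccaccggccccg
Spsb4: gctccggggacGGGCGGccgaggtgcggcc
Cox10: acgactcgccttCCGCCCgcgggctccgac

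The members with a known role in heart muscle differed in how even their lower arrays were. Irx5 (chromosome 8, 92357796 to 92361456) read 632 and 1053 in Rhau KO replicates 1 and 2, 27.1 in Control replicate 1 and 3601 in Control replicate 2. Control replicate 2 was thus 4.27 times the mean of the Rhau KO-labelled arrays, and the dim reading of Control replicate 1 fell on the array low in heart transcripts. Myh7b read 638, 621 and 604 in the first 3 arrays and 3333 in Control replicate 2. Its 3 lower arrays agreed within 1.06-fold of each other, the closest of the 11 members, and included the array with skeletal muscle transcripts. Cox10 (chromosome 11, 63962627 to 64079472) behaved in the same way, with 1467, 1437 and 1616 against 4914, and its 3 lower arrays lay within 1.12-fold. Cox10 was the member nearest to the ratio limit, at 3.04 times the highest other array.

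Mta3 and the 3 signaling genes shared no order among the lower arrays. Mta3 (chromosome 17, 83706163 to 83823715) read 314 and 393 in the Rhau KO-labelled arrays, 243 in Control replicate 1 and 1284 in Control replicate 2. For Gnb3 (chromosome 6, 124834240 to 124840275) the values were 200 and 168, 94.0 and 988 in the same order. Cdc42bpg (chromosome 19, 6306253 to 6325653) had 488 and 625 in the Rhau KO-labelled arrays, 782 in Control replicate 1 and 3106 in Control replicate 2. Control replicate 1 was the lowest array for Mta3 and Gnb3 and the second highest for Cdc42bpg, so these 3 genes had in common the height of Control replicate 2. Spsb4 (chromosome 9, 96943482 to 97018355) read 220, 140, 198 and 745.

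Tctn1, Psca and Adam2 had the highest ratios. Tctn1 (chromosome 5, 122239495 to 122264489) read 84.5 and 123 in the Rhau KO-labelled arrays, 251 in Control replicate 1 and 1757 in Control replicate 2, 7.01 times the highest other array. Its order differed from that of most members, since Control replicate 1 stood above both Rhau KO arrays. Psca (chromosome 15, 74714839 to 74717065) read 20.1, 54.8, 15.3 and 562, a ratio of 10.3, and Adam2 (chromosome 14, 66027322 to 66077851) read 43.7, 4.67, 56.1 and 514, a ratio of 9.15. For both genes all 3 other arrays were under 100, a dim level below which 51.7% to 54.0% of probe sets of an array lay, so the size of these ratios rests on dim readings. E230013L22Rik (chromosome 8, 11477929 to 11480241) read 265 in each Rhau KO-labelled array, 1.97 in Control replicate 1 and 1188 in Control replicate 2. The reading of E230013L22Rik in Control replicate 1 was near the bottom of the scale, at percentile 1.31 of all genes on that array.

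**Figure D1:**
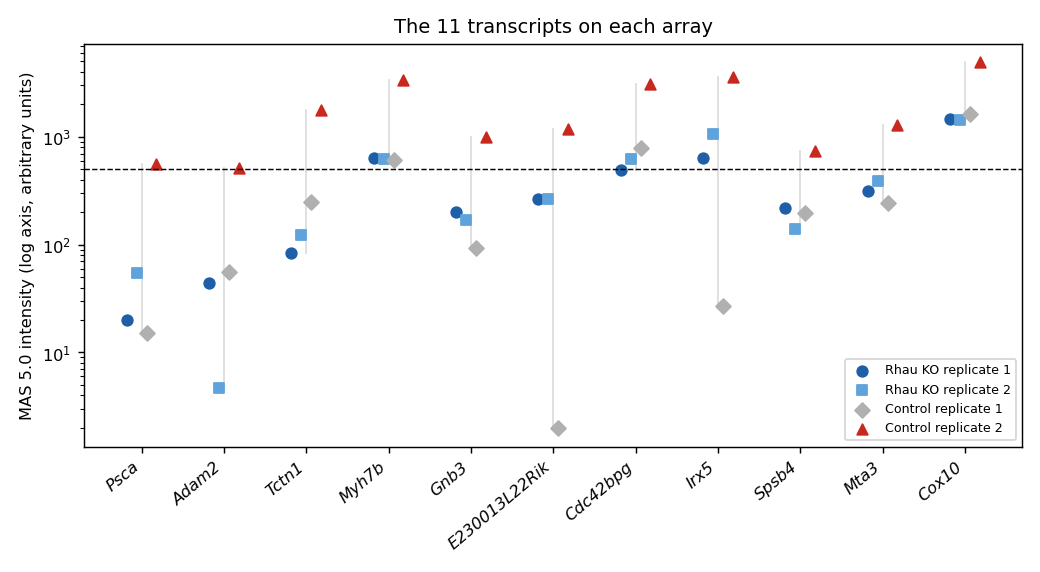
The 11 transcripts along the x axis and their MAS 5.0 intensity in arbitrary units on a log y axis, with Rhau KO replicates 1 and 2 as dark and light blue symbols, Control replicate 1 as grey diamonds and Control replicate 2 as red triangles; the dashed line is the intensity limit of 500 and the grey lines join the lowest and highest array. Control replicate 2 lies between 514 and 4914, and the other arrays of Irx5 and E230013L22Rik are spread widely because Control replicate 1 read 27.1 and 1.97.

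Across the 11, Control replicate 2 ran from 514 to 4914 with a median of 1284, which placed the members between percentiles 65.4 and 94.5 of all genes on that array. The ratio to the highest other array ran from 3.04 to 10.3 with a median of 4.48. Against the mean of the Rhau KO-labelled arrays, Control replicate 2 was 3.38 times for Cox10, 3.64 for Mta3, 4.13 for Spsb4, 4.27 for Irx5 and 4.48 for E230013L22Rik. On the same measure it was 5.29 times for Myh7b, 5.37 for Gnb3, 5.58 for Cdc42bpg, 15.0 for Psca, 16.9 for Tctn1 and 21.2 for Adam2. The rule made every member at least 3 times that mean, so these values were bound to be high. A total of 6.45% of all genes reached 2 times that mean. The Rhau KO-labelled arrays lay within 1.5-fold of each other for 7 of the 11. The 3 other arrays together spanned 2-fold or less for 5 members and more for 6, and Control replicate 1 was the lowest array for 6. The shares of all genes were not computed for these counts, so they describe the members without setting them apart. The median span of the 3 other arrays was 2.13-fold for the members and 1.84-fold for all genes. It was 1.48-fold for the 6379 genes that read at least 500 in Control replicate 2. The rule kept the other arrays of every member at least 3-fold below Control replicate 2. The reference sets lack that condition, so the spans are not like for like. Just inside the ratio limit stood Cox10 at 3.04, Mta3 at 3.27 and Spsb4 at 3.38. Just outside it stood the early response factor Egr3 at 2.96 (590 in Control replicate 2), Naa35, a subunit of an N-terminal acetyltransferase, at 2.82 (8931), and the HSP90 cochaperone Ahsa2 at 2.67 (3674). A further 117 genes reached a ratio of 3 with Control replicate 2 under 500, led by Adamts6 at 425 and Hey2 at 364.

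The same limits were applied with each other array in the place of Control replicate 2, to show what the rule gives elsewhere. Control replicate 1 gave 318 genes (1.75% of all genes), Rhau KO replicate 1 gave 1 (0.0055%) and Rhau KO replicate 2 gave 0 (0%). The set of 11 was thus smaller than that of the array with skeletal muscle transcripts and larger than those of the Rhau KO-labelled arrays. In the 8 genes left out by symbol, ratios ran from 3.21 for Fos to 15.9 for Hspa1a, so the highest ratio among the left-out genes exceeded that of Psca.

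**Figure D2:**
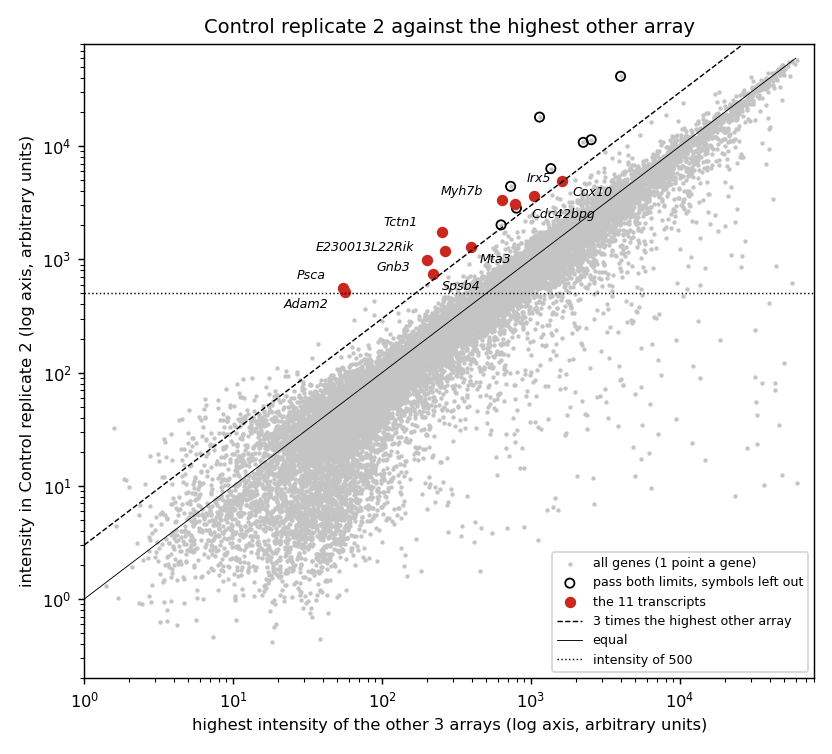
Intensity in Control replicate 2 against the highest of the other 3 arrays (log axes, arbitrary units), one point per gene for 18193 genes, with the 11 transcripts in red, the 8 genes left out by symbol as open circles, the ratio of 3 dashed and the intensity of 500 dotted. Psca and Adam2 lie far to the left because all other arrays read under 100, and Cox10 touches the dashed line at 3.04.

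Other probe sets read the same RNA through other probes, and the rule did not use them. Of the 11 members, 8 had a single probe set and 3 had more, with 5 other probe sets in all. In 3 of these 5 Control replicate 2 was the highest array, where 22.7% of the other probe sets of all genes had it highest. All 3 were at least 2 times the highest other array, which 2.45% of all other probe sets reached. The second probe set of Spsb4 read 135 and 126 in the Rhau KO-labelled arrays, 112 in Control replicate 1 and 365 in Control replicate 2. Another probe set of Mta3 read 261, 192, 314 and 775, and that of Cox10 read 1593, 1493, 1571 and 3300. Their ratios were 2.71 for Spsb4, 2.47 for Mta3 and 2.07 for Cox10, each smaller than on the brightest probe set. The third probe set of Mta3 read 109 and 122, 172 and 124, and that of Cox10 read 21.3 and 18.7, 41.8 and 23.7, with Control replicate 1 highest in both. The third probe set of Cox10 was under 100 on all 4 arrays, and that of Mta3 was above 100 on all 4. Against the mean of the Rhau KO-labelled arrays, the same 3 of the 5 reached 2 times, at 2.14 for Cox10, 2.80 for Spsb4 and 3.42 for Mta3, where 7.46% of all other probe sets did. For Irx5, Myh7b, Gnb3, Cdc42bpg, Tctn1, Psca, Adam2 and E230013L22Rik no other probe set with a single symbol was there to compare. The probe sets of Myh7b, E230013L22Rik and Cdc42bpg were designed on expressed sequence tags, and no target is listed for that of Cox10, so that which part of these transcripts they read is not given in the sources used here.

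**Figure D3:**
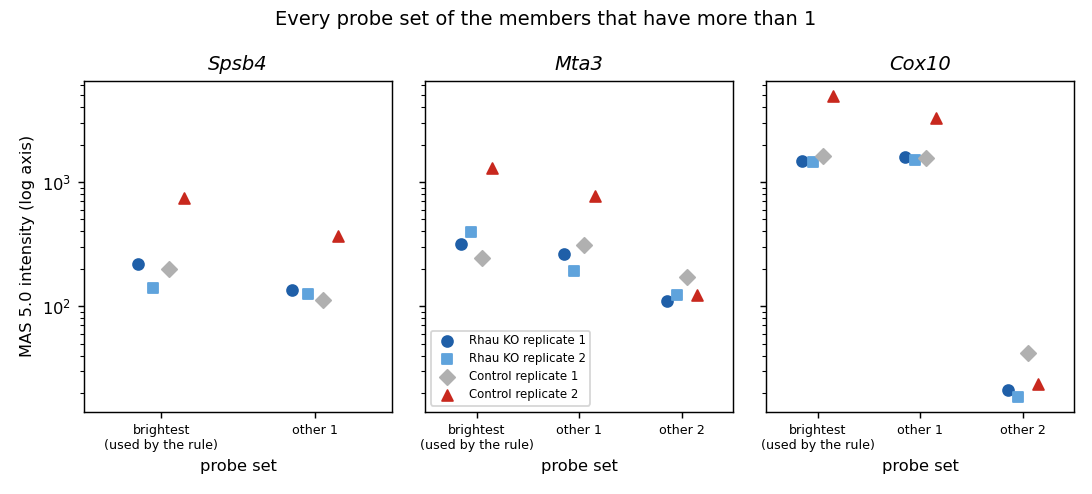
Intensity in MAS 5.0 units on a log axis for every probe set of Spsb4, Mta3 and Cox10, one symbol per array, with the brightest probe set, which the rule used, at the left of each panel. Control replicate 2 (red) is highest on the first 2 probe sets of each gene and not on the third of Mta3 and Cox10.

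Of the close relatives of the members, none reached 2 times the highest other array in Control replicate 2, and 8 reached 2 times the mean of the Rhau KO-labelled arrays. The 10 families and complexes were chosen after the members were known, and they held 77 other measured genes. Of these, 19 (24.7%) were highest in Control replicate 2, against 23.8% of all genes, and 0 were at least 2 times the highest other array, against 1.83% of all genes. Against the mean of the Rhau KO-labelled arrays, 8 of the 77 (10.4%) reached 2 times, beside 6.45% of all genes. They were Myh7 at 3.08, Mbd3 at 2.40, Irx4 at 2.19 and 5 genes that read under 100 in Control replicate 2. The highest ratio to the highest other array among the 77 was 1.93, for Spesp1, a sperm gene that read 29.8 in Control replicate 2. Irx4, a ventricular Iroquois factor, followed with 535 and 405 in the Rhau KO-labelled arrays, 38.2 in Control replicate 1 and 1031 in Control replicate 2. Irx3, the neighbour of Irx5 in the same gene cluster, read 1665, 2775, 172 and 1848. Irx5, Irx4 and Irx3 had in common a low reading in Control replicate 1, while Control replicate 2 was highest for Irx5 and Irx4 and not for Irx3.

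Among the myosins, 1 relative was high in Control replicate 2 and in Control replicate 1. Myh6, the main myosin of the adult mouse ventricle, read 56344, 55092 and 56095 in Rhau KO replicates 1 and 2 and Control replicate 2, against 171 in Control replicate 1. Myh7, the slow cardiac myosin, read 5095 and 15848 in the Rhau KO-labelled arrays, 37865 in Control replicate 1 and 32278 in Control replicate 2. Both Control arrays thus lay above both Rhau KO arrays, an order that 14.6% of all genes had. The part of skeletal muscle in the Control replicate 1 reading of Myh7 was not tested. Myh7b, which is related to both, differed from Myh6 in being even over the 3 lower arrays and from Myh7 in not being high in Control replicate 1.

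In NuRD, of which Mta3 is a subunit, the paralogs Mta1 and Mta2 read 513 and 420 in Control replicate 2 and 298 to 613 elsewhere. Of the 12 other subunits, Mbd2 had the highest ratio to the highest other array, at 1.38. Mbd3 stood out against the Rhau KO-labelled arrays, with 1060 and 989 there, 2548 in Control replicate 1 and 2463 in Control replicate 2. In cytochrome c oxidase assembly, Cox15, which acts after Cox10 in the synthesis of heme A, read 1469, 1480 and 1317 in the first 3 arrays and 1030 in Control replicate 2, its lowest array. None of the 15 other assembly factors exceeded a ratio of 1.23. Of the other MRCK kinases, Cdc42bpb had a ratio of 1.32 and Cdc42bpa of 0.954. Of the other G protein beta subunits, Gnb1 had a ratio of 1.23 and Gnb5 of 0.829, and the other SPRY and SOCS box genes stayed under 1. Tctn2 and Tctn3, which share the transition zone with Tctn1, had ratios of 0.911 and 0.697.

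Lists of genes from the tissues in which Psca, Adam2 and Gnb3 are best known had medians under 100 on all 4 arrays. The median intensity of 16 sperm ADAM and fertilisation genes other than Adam2 and of 17 testis germ cell genes ranged over the arrays from 15.7 to 27.1 and from 24.0 to 40.8, and Control replicate 2 was highest for 3 of the 16 and 4 of the 17. Single genes of these lists were brighter, such as Calr3 at 411 to 1069 and Odf2 at 338 to 761, and neither was at least 2 times the highest other array in Control replicate 2. For 19 photoreceptor genes the median was 18.6 on Control replicate 2 against 17.8 to 37.0 elsewhere, and 3 of them were highest there. For 20 epithelial genes the median was 58.9 on Control replicate 2 against 44.5 to 57.3 elsewhere, and 7 of them (35.0%) were highest there. The testis, photoreceptor and epithelial lists each held 1 gene at least 2 times the highest other array, where 1.83% of all genes were. These were Tnp2 at 2.37, Guca1a at 2.55 and Esrp1 at 4.17, which read only 35.0, 22.7 and 29.5 in Control replicate 2. In the same lists 1, 2 and 1 genes lay 2-fold or more below the lowest other array. The 12 epicardial and mesothelial markers had a median of 65.5 on Control replicate 2 against 40.2 to 50.9 elsewhere. Their summed intensity was 1218 against 564 to 918. Control replicate 2 was highest for 7 of the 12, beside 23.8% of all genes, and at least 2 times the highest other array for 0. Most were dim, with 7 of the 12 under 100 on Control replicate 2 and 8 to 11 elsewhere. The part of these cells in the reading of Psca was not tested.

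**Figure D4:**
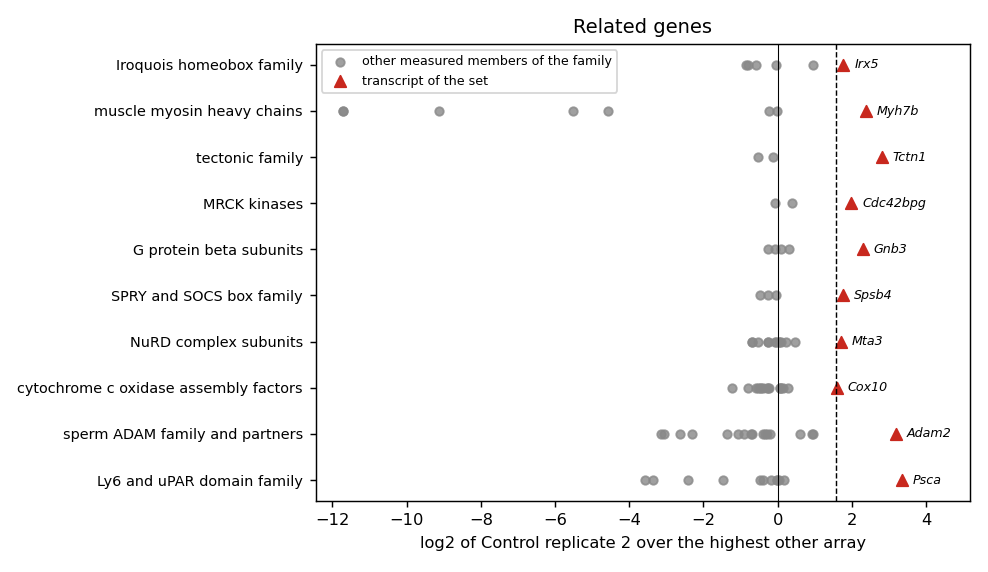
Ratio of Control replicate 2 to the highest other array on a log2 scale for the 10 transcripts with a family or complex (red triangles) and their measured relatives (grey), with the solid line at equal and the dashed line at a ratio of 3. No relative reaches the dashed line, and the myosins far to the left are those that read high in Control replicate 1.

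The genes next to the members on the genome were read in the same way. On GRCm38.p6, 26 measured genes lay next to or overlapped a member. Control replicate 2 was the highest array for 3 of them (11.5%, against 23.8% of all genes), and their median ratio was 0.805 against 0.784 over all genes. Against the mean of the Rhau KO-labelled arrays, 0 of the 26 reached 2 times, and the highest was Irx6 at 1.72. E230013L22Rik overlaps Rab20, a small GTPase, which read 650 and 718 in the Rhau KO-labelled arrays, 95.5 in Control replicate 1 and 638 in Control replicate 2. Rab20 and E230013L22Rik were thus both low in Control replicate 1, and Rab20 was not higher in Control replicate 2 than in the Rhau KO-labelled arrays. Trpc4ap, which overlaps Myh7b, read 1009, 997, 940 and 1007, and Hvcn1, which overlaps Tctn1, stayed under 100 on all 4 arrays. The nearest measured gene to Irx5, Crnde at 1.68 kb, read 148, 228, 48.8 and 185.

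**Figure D5:**
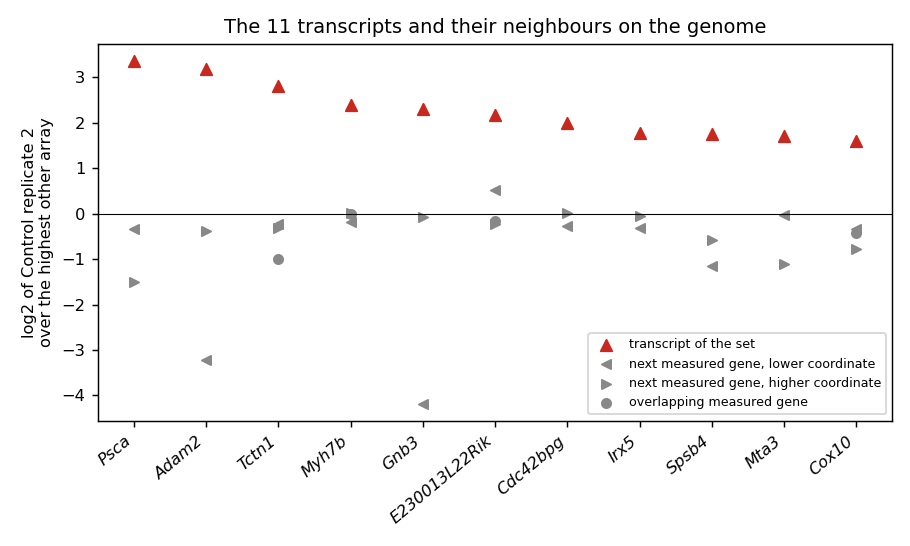
Ratio of Control replicate 2 to the highest other array on a log2 scale for the 11 transcripts (red triangles) and for the next measured gene on each side or overlapping (grey), with the solid line at equal. The neighbours lie at or below equal apart from 3, the highest of which is Col4a2 at a ratio of 1.44 beside E230013L22Rik.

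None of the 11 belonged to the 32 lists of stress, signaling, metabolic and cell type genes that were drawn up for this series with earlier results of these data known. Values of the stress lists are given beside the members because genes left out by symbol moved in the same array. Of 45 heat shock protein and DnaJ genes, Control replicate 2 was highest for 20 (44.4%) and at least 2 times the highest other array for 6. Of these 6, 4 had passed both limits of the rule and were left out by symbol, so this count is a description only. Of 76 secondary early response and feedback genes, it was highest for 40 (52.6%) and at least 2 times the highest other for 6. Over all genes these shares were 23.8% and 1.83%. For being highest in Control replicate 2, shares as high were seen in lists that are not of stress genes. Control replicate 2 was highest for 11 of 20 macrophage and monocyte markers (55.0%), 30 of 57 cytoskeleton and adhesion regulators (52.6%), 13 of 27 interferon response genes (48.1%) and 9 of 19 endothelial markers (47.4%). In the same order, Control replicate 2 was at least 2 times the highest other array for 0, 0, 1 and 1 of these genes. Control replicate 1 had the lowest sum in each of these lists, as in the heat shock list. Macrophage markers summed to 27594 and 27667 in Rhau KO replicates 1 and 2, and 13312 and 29191 in Control replicates 1 and 2. In this order the sums were 352511, 353089, 259632 and 389579 for cytoskeleton genes. They were 49541, 39368, 22067 and 48724 for interferon genes and 84593, 88824, 52076 and 92338 for endothelial markers. Of 31 HSP90 and HSP70 cochaperones it was highest for 12, and of 33 genes of the unfolded protein response for 14. The part of the stress genes or of these cell types in the readings of the members was not tested. The median log2 difference of Control replicate 2 from the mean of the other 3 arrays was 0.03 over all genes. It was 0.12 for the heat shock list, 0.36 for the early response list and 0.36 for the macrophage list. For the cytoskeleton list it was 0.35, for the endothelial list 0.49 and for the ventricular cardiomyocyte markers 0.41. The sum of those ventricular markers was close between Control replicate 2 and the Rhau KO-labelled arrays. That mean includes Control replicate 1, so these values do not place Control replicate 2 above the Rhau KO-labelled arrays. Among the members the difference was 1.71 for Cox10 and 4.52 for E230013L22Rik.

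The comparison that the design implies, Rhau KO minus Control, was fitted with limma over all genes. It used the same intensities that chose the members, though not the same contrast, so its values are descriptions. The mean log2 intensity was lower in the Rhau KO-labelled arrays for 9 of the 11, with a median log2 difference of -1.13 against 0.09 over all genes. The differences had standard errors of 0.57 for Cox10 to 3.09 for E230013L22Rik, and the Control-labelled arrays differed from each other. For Tctn1 the log2 difference was -2.70 (standard error 0.99), and its mean intensity was 104 ± 27.4 (SD, n = 2) against 1004 ± 1065 (SD, n = 2). It was the 1 member past a fold of 2 with an unadjusted p under 0.05, limits that 3.29% of all genes passed, 1.64% in this direction. Over all genes 300 were higher and 299 lower in the Rhau KO-labelled arrays, and 237 and 379 with median centring, which moved the median of all genes from 0.09 to -0.04. By limma, 0 of the 11 and 0 of all genes (0%) passed an adjusted p under 0.05. Both Control arrays lay above both Rhau KO arrays for 4 members, Adam2, Cdc42bpg, Cox10 and Tctn1, and for 14.6% of all genes. The rule had already put Control replicate 2 above both Rhau KO arrays for every member, so only Control replicate 1 was free to decide this. The share over all genes lacks that condition, so no separation of the groups can be read from the count. The 2 members with a higher mean log2 intensity in the Rhau KO-labelled arrays were Irx5 at 1.39 (standard error 2.37) and E230013L22Rik at 2.45 (standard error 3.09), both dim in Control replicate 1. With a pseudocount of 32 added to each intensity these became 0.87 for Irx5 and 0.54 for E230013L22Rik, and Adam2, dim on 3 arrays, went from -3.57 to -2.06.

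Without Control replicate 1, the direction of these 2 turned, to -2.14 for Irx5 and -2.16 for E230013L22Rik, and all 11 were lower, from -1.76 (Cox10) to -5.17 (Adam2) on the log2 scale. That comparison sets both Rhau KO arrays against Control replicate 2 alone, the array on which the members were chosen. All 11 were then past the fold and p limits and 7 past an adjusted p under 0.05 by limma, which 1.54% (in this direction) and 0.819% of all genes passed, and nothing can be read from these counts. Without Control replicate 2, the comparison sets both Rhau KO arrays against Control replicate 1 alone, the array with skeletal muscle transcripts. Then 5 members were lower in the Rhau KO-labelled arrays, with log2 differences of -1.97 for Adam2 (standard error 1.48), -1.30 for Tctn1 (0.41), -0.50 for Cdc42bpg (0.21), -0.17 for Spsb4 (0.39) and -0.15 for Cox10 (0.12). Myh7b was at 0.0589 (standard error 0.17), Mta3 at 0.53 (0.26) and Gnb3 at 0.97 (0.36). Psca, Irx5 and E230013L22Rik were higher in the Rhau KO-labelled arrays by amounts that rest on readings of 15.3, 27.1 and 1.97 in Control replicate 1. Past the fold and p limits were 3 members, Tctn1, Irx5 and E230013L22Rik, where 18% of all genes passed, and Irx5 and E230013L22Rik passed an adjusted p under 0.05 by limma, as 22.5% of all genes did. With all arrays, 4 of the 77 relatives passed the fold and p limits, 2 in each direction, where 3.29% of all genes passed. Mbd3 and Myh7 were lower and the dim Adam26a and Spam1 higher in the Rhau KO-labelled arrays.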

How the data were processed

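The authors hybridised heart RNA to Affymetrix mouse genome arrays and processed them by MAS 5.0 (GeneSpring). The deposited intensities are linear, with a 2% trimmed mean of 500 on each of the 4 arrays, and were used unchanged. Of 45101 probe sets, 34958 carried 1 symbol in the platform annotation, 932 several and 9211 none, and 64 controls were left out. Groups came from the sample labels. Members and lists were chosen with earlier results of these data known, and 14 of the 46 lists once the members were known. By the naming rule all members were named, with genes next to the limits. All 11 members matched RefSeq (GRCm38.p6) by gene ID. Rhau KO was compared with Control on log2 intensities by limma 3.58.1 (lmFit, eBayes with trend) under R 4.3.3, with Benjamini-Hochberg adjustment over 18193 genes, after the code was tested on simulated data. Other steps used Python 3.11.15, numpy 2.4.6, pandas 2.3.3 and matplotlib 3.10.9. With 4 arrays the precision is limited, and p-values describe the spread between these samples alone, which may be technical. The alternatives varied scaling, pseudocount, probe set choice, limits, the test, the replicate block and the arrays used.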

Additional observations from a re-analysis of the deposited data

How the results depend on the processing

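The number of genes past both limits was 12 with quantile normalization, 11 with median centring, 9 with the mean of all probe sets, 11 with a pseudocount of 32 and 13 with every probe set counted. Cox10 was lost with median centring, and Cox10 and Mta3 with the mean of all probe sets. It was 51 at a ratio of at least 2, 4 at a ratio of at least 5 and 7 at an intensity of at least 1000. It was 19 without Rhau KO replicate 1, 19 without Rhau KO replicate 2 and 30 without Control replicate 1, and in each case the 11 were among them. Against Control replicate 1 alone, an alternative chosen after seeing the data, it was 485. Of the 77 relatives, 0 reached 2 times the highest other array and 8 reached 2 times the mean of both Rhau KO arrays, also chosen after seeing the data. The 1 gene of Rhau KO replicate 1 became 0 with the mean of all probe sets.

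The number of genes past a fold of 2 and an unadjusted p under 0.05 in Rhau KO against Control was 599, and 338 with a pseudocount of 32, 167 in the brighter genes and 351 by the methods' t-test. It was 285 to 3282 when 1 array was left out, the highest without Control replicate 2. At an adjusted p under 0.05 by limma the count was 0 (785 at an unadjusted p under 0.05, and 0 and 941 by the methods' t-test), and 0 to 4097 when 1 array was left out, with 149 without Control replicate 1. Among the members the count past both limits was 0 with no trend, a pseudocount of 32, the brighter genes and the methods' t-test. Over all genes it was 825 of 18193, 338 of 18193, 167 of 9096 and 351 of 18193 in the same order. With the replicate number as a block it was 2 members, Tctn1 and Cdc42bpg, and 634 of all 18193 genes, of which 0 passed an adjusted p under 0.05 by limma. The replicate numbers are not known to pair the arrays (correlation of deviations 0.00603). The direction of Rhau KO minus Control turned with 1 array left out for 6 members. Without Control replicate 2 the log2 difference was 0.97 for Gnb3, 0.53 for Mta3, 0.0589 for Myh7b, 1.12 for Psca, 4.91 for Irx5 and 7.07 for E230013L22Rik. Without Control replicate 1 it was -2.43, -1.87, -2.40, -4.08, -2.14 and -2.16 in the same order. The sizes for Psca, Irx5 and E230013L22Rik without Control replicate 2 rest on readings of 15.3, 27.1 and 1.97 and are no measure of size. A group reduced to 1 array was taken to have the spread of the other group. The cause of these changes was not tested.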

Other observations

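With Rhau KO replicate 1 in the place of Control replicate 2, the limits were passed by Cdca3, a cell division gene that lies 0.539 kb from Gnb3. Cdca3 read 962 in Rhau KO replicate 1, 63.0 in Rhau KO replicate 2, 120 and 53.1 in Control replicates 1 and 2, a ratio of 8.04 to the highest other array. It and Gnb3 were thus each high on 1 array, and not on the same one.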
